A study of Mus musculus with 96 samples.

Results

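Cell adhesion molecules of the synapse, together with cadherins and immunoglobulin superfamily members, form a set of 49 genes here. They were taken by symbol from the 38887 rows of a Patch-seq table, in which each column holds the transcripts aspirated from a single patched neuron, and they fall into 15 families. The neurons came from coronal slices of the lateral superior olive (LSO) of C57BL/6J wild-type mice around hearing onset. The class of each neuron was taken from its firing-pattern label. Principal neurons (pLSO), the ascending output of the LSO, fired with an Onset (41 neurons) or a Sustained pattern (11 neurons), and lateral olivocochlear neurons (LOC), the descending neurons that project to the cochlea, fired with a delayed pattern (28 neurons). The study formed its pLSO and LOC clusters from the RNA of these neurons, and then found the firing patterns fully congruent with them. The pLSO and LOC classes are therefore not defined independently of the expression compared here. The 8 negative controls were pipettes that touched the tissue without harvesting a cell. The labels give no treatment and name no animal behind a neuron, so each group counted as 1 sample, no test between groups was made, and every interval covers counting error over neurons only.

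Synaptic adhesion molecules bridge the pre- and postsynaptic membrane and help to specify which partners connect. Presynaptic neurexins bind postsynaptic neuroligins and leucine-rich LRRTM proteins, and secreted neurexophilins attach to α-neurexins. Teneurins bind latrophilins, which also bind FLRT proteins. Classical cadherins adhere to cadherins on the opposite cell in a calcium-dependent manner, and contactins pair with Caspr proteins (Cntnap genes) on axons. pLSO neurons compare excitatory and inhibitory input from both ears, whereas LOC neurons modulate the terminals of auditory nerve fibers in the cochlea.

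Most of the class markers are genes that the study had found to differ between the classes in these same data. This holds for Calca, Ucn, Isl1, Gata3, Spp1, Maf, Slc17a6 and Cacng5. Their levels describe the classes and are no independent check of them. The summed level of the LOC markers found in the table (Calca, Ucn, Isl1, Gata3 and Chat) had a median of 1896 TPM in LOC neurons and 0 TPM in pLSO neurons, and Chat was found in only 5 of 28 LOC neurons. Of the pLSO markers, Spp1 was detected in 50 of 52 pLSO and 1 of 28 LOC neurons, Maf in 45 and 8, Slc17a6 in 36 and 7, Cacng5 in 34 and 2, and Slc6a5 in 7 and 6. RNA of the surrounding tissue was also present. The sum of 7 oligodendrocyte markers ranged from 0 to 12835 TPM in pLSO neurons (median 288), from 1 to 25786 TPM in LOC neurons (median 1115) and from 389 to 42992 TPM in negative controls (median 6831). Of the 5 endothelial markers, Ly6c1 and Cdh5 were at 0 in every library. Pecam1 was detected in 10 of 52 pLSO neurons, 5 of 28 LOC neurons and 2 of 8 negative controls. Cldn5 was found in 1 pLSO neuron and Flt1 in 2. The sum of 6 astrocyte markers reached 2930 TPM in pLSO neurons, 13459 TPM in LOC neurons and 2527 TPM in negative controls (medians 35.5, 42 and 97.5). The sum of 7 microglial markers reached 1817, 537 and 455 TPM (medians 2, 8 and 0.5). Values were whole numbers in TPM, a unit normalized to gene length and library size, and the depth of each library was unknown. A gene was called detected at 1 TPM or more. Their scale changed along the table: the median of the lowest positive values was 27.3 TPM in the first 150 rows and 1 TPM between rows 5000 and 8000. Levels were therefore compared between neurons for the same gene, and between genes only after rescaling to the length of each gene. The lengths behind the deposited values were inferred, so rescaled means and ranks are estimates.

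The upstream sequence of 3 members with a large difference between the classes is shown, because these members were detected mainly in pLSO (Lrfn5 and Igsf3) or in LOC neurons (Cdh8). Each window runs from 250 to 51 bases before a transcript start of RefSeq (build GRCm38.p6). It lies at chr12:61522917-61523116 on the plus strand for Lrfn5, at chr3:101376875-101377074 on the plus strand for Igsf3 and at chr8:99416522-99416721 on the minus strand for Cdh8. Capitals mark the GC box GGGCGG, read on both strands.
Lrfn5: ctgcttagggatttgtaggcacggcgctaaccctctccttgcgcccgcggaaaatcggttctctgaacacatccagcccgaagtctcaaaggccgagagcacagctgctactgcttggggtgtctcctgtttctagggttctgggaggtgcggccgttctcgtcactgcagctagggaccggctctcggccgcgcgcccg
Igsf3: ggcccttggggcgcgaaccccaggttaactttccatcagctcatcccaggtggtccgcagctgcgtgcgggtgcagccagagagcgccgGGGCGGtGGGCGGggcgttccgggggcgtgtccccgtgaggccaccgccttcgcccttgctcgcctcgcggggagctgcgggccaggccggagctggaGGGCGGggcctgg
Cdh8: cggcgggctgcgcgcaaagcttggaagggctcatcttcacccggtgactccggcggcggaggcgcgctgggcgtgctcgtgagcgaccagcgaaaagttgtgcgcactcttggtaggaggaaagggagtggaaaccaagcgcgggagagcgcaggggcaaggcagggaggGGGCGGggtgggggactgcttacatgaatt
The Igsf3 window held 3 GC boxes, the Cdh8 window 1 and the Lrfn5 window 0. Windows of the same length were found for 30 of the 49 members (42 windows), and 8 of the 42 held a GC box, compared with 24.6% of 32851 windows of all genes. The Maf core TGCTGA and the GATA site AGATAA were also searched on both strands, since Maf and Gata3 are markers of the classes, and neither overlaps the GC box. The Maf core was present in 9 of the 42 windows and in 13.1% of all windows, and the GATA site in 1 of the 42 and in 8.42% of all windows. Neither occurred in the windows printed above.

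How does the adhesion gene repertoire of pLSO neurons compare with that of LOC neurons? The share of neurons with a transcript was at least 25 percentage points higher in pLSO for 9 of the 49 members (Lrfn5, Igsf3, Tenm2, Cntn4, Cdh11, Sez6, Cdh4, Cadm2 and Cdh2) and at least 25 points higher in LOC for 4 (Nxph1, Cdh8, Nrxn3 and Ncam1). Among 10319 genes detected in at least 4 of the 80 neurons, 3.06% passed the first rule and 1.8% the second. In all, 43 members passed this filter on low values, and the 13 named members were all among them. The member list was chosen with earlier results of these data known. The study had already ranked Lrfn5, Igsf3, Tenm2, Cntn4 and Nxph1 among the top genes that separate the classes. A number of members above the percentages of all genes is therefore not a result about adhesion genes as a set. The exact 95% intervals of the 2 classes did not overlap for 10 of the 13 named members, and they overlapped for Cadm2, Cdh2 and Ncam1. The 13 were picked by a large difference of these same shares, and the count was not made over all genes. It describes single members only. On the scale of the mean log2(TPM + 1), 10 members were at least 1 higher in pLSO (6.99% of all genes tested) and 6 were at least 1 higher in LOC (4.68%), which added Cntnap1 in pLSO, and Cntn5 and Igsf5 in LOC. The remaining 33 members differed by less than both thresholds. The median difference of the share, pLSO minus LOC, was 0.275 points over all 49 members. Over the 43 members that passed the filter it was 4.67 points, and over all genes that passed it 2.2 points. A further comparison used the 29 pLSO and 11 LOC neurons whose oligodendrocyte marker sum was below the median of all 80 neurons. Of the members at least 25 points higher, 8 of the 9 in pLSO and 3 of the 4 in LOC remained so. Cdh11 and Ncam1 did not, while Tenm4, Nlgn3, Igsf5 and Cntn5 passed the threshold in LOC and Cntnap1 in pLSO. The percentage of all genes past the threshold was not computed for these neurons.

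**Figure D1:**
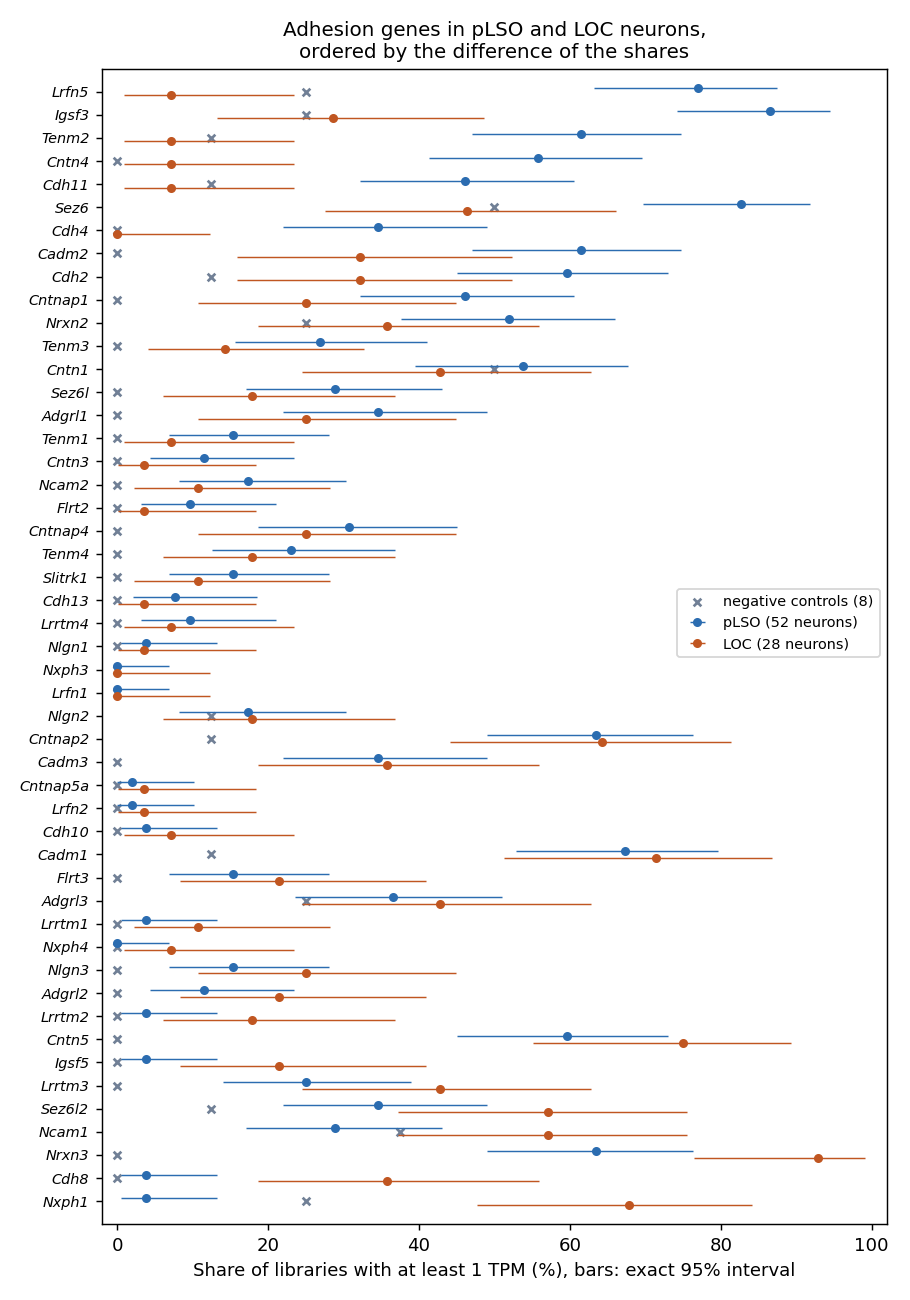
Share of libraries with at least 1 TPM (x axis, %) for the 49 adhesion genes (y axis), ordered by the difference of the shares. Blue points are 52 pLSO neurons, orange points 28 LOC neurons, bars exact 95% intervals, and crosses the 8 negative controls without an interval. Lrfn5 (76.9% against 7.14%) is at the top and Nxph1 (3.85% against 67.9%) at the bottom.

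**Figure D2:**
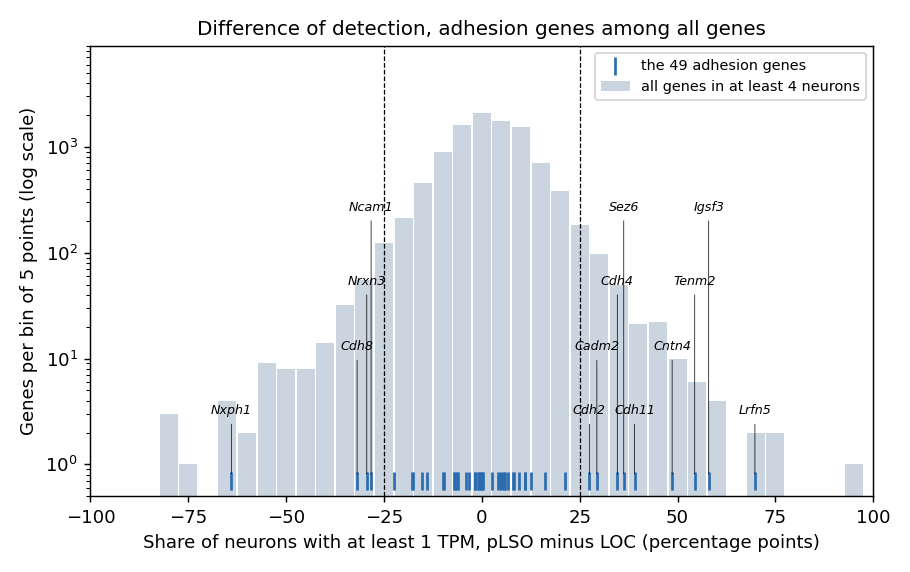
Difference of the share of neurons with at least 1 TPM, pLSO minus LOC (x axis, percentage points), for all 10319 genes tested (grey bars, number per bin of 5 points on a log axis). Blue ticks are the 49 adhesion genes, dashed lines mark 25 points in each direction, and the 13 members beyond them are named.

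Among the secreted ligands, the neurexophilin Nxph1 (ENSMUSG00000046178, chr6:8948431-9249032, plus strand) showed the largest difference of the share at 1 TPM toward LOC of all members. Its level in LOC neurons ranged from 0 to 124 TPM with a median of 18.5 TPM, and 19 of 28 neurons had a transcript (67.9%, 95% interval 47.6 to 84.1%). In pLSO neurons it ranged from 0 to 6 TPM with a median of 0, and 2 of 52 neurons had a transcript (3.85%, 0.469 to 13.2%). The 2 pLSO neurons with Nxph1 held 3 and 6 TPM and were both Sustained. None of 41 Onset neurons had a transcript, which allows a share of up to 7.32%. The classes thus overlapped only at their low end, where 9 LOC neurons were at 0, and 2 of the 8 negative controls held 2 and 5 TPM. The mean was 25.1 TPM in LOC neurons (SD 30.5) and 0.173 TPM in pLSO neurons (SD 0.923). The related Nxph4 was found in 2 LOC neurons at no more than 2 TPM, and Nxph3 was listed at 0 in every library, which allows shares of up to 5.77% in pLSO and 10.7% in LOC neurons.

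Neurexins, the presynaptic receptors of these ligands, were common in both classes. Nrxn3 (ENSMUSG00000066392, chr12:88722876-90334935, plus strand) ranged from 0 to 61 TPM in LOC neurons (median 6) and from 0 to 34 TPM in pLSO neurons (median 3). It was detected in 26 of 28 LOC neurons (92.9%, 76.5 to 99.1%), in 33 of 52 pLSO neurons (63.5%, 48.96 to 76.4%) and in none of the negative controls. The mean was 17.3 TPM (SD 20.6) in LOC and 5.83 TPM (SD 7.97) in pLSO neurons, a ratio of 2.97. Most neurons of the classes lay in the same range, and the LOC neurons extended to higher values. Nrxn2 was detected in 51.9% of pLSO and 35.7% of LOC neurons, with overlapping intervals and means of 2.37 and 3.54 TPM.

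Of the postsynaptic partners of neurexins, Lrrtm3 was the most frequent. Neuroligins, which bind neurexins across the cleft, were found in 3.85 to 17.3% of pLSO neurons and 3.57 to 25% of LOC neurons, with Nlgn1 in 2 pLSO neurons and 1 LOC neuron. Of the LRRTM genes, Lrrtm3 was detected in 25% of pLSO and 42.9% of LOC neurons, while Lrrtm1, Lrrtm2 and Lrrtm4 did not exceed 17.9% in either class. None of these 7 genes reached a difference of 25 points.

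Lrfn5 (SALM5, ENSMUSG00000035653, chr12:61523150-61858342, plus strand), a leucine-rich adhesion molecule of the SALM family, had the largest difference of the share at 1 TPM toward pLSO of all members. At 2 TPM Igsf3 exceeded it (71.4 against 62.1 points). The mean log2(TPM + 1) differed by 4.87 for Sez6, 3.25 for Cdh4 and 2.55 for Lrfn5. Sez6 and Cdh4 lie among the first 150 rows, where the lowest positive values were higher, so these differences give no order of the genes. After rescaling to gene length, the pLSO means were 68.2 TPM for Lrfn5, 36.5 TPM for Sez6 and 12.6 TPM for Cdh4. In pLSO neurons Lrfn5 ranged from 0 to 155 TPM with a median of 7 TPM. It was detected in 40 of 52 pLSO neurons (76.9%, 63.2 to 87.5%) and in 2 of 28 LOC neurons (7.14%, 0.877 to 23.5%), which held 12 and 72 TPM. The mean was 18.9 TPM (SD 28.0) in pLSO and 3 TPM (SD 13.7) in LOC neurons, and without the LOC neuron of 72 TPM the LOC mean was 0.444 TPM. Lrfn5 was thus a gene of most pLSO neurons and of few LOC neurons, and the negative controls held at most 2 TPM (2 of 8). The other SALM members did not share this pattern: Lrfn2 was found in 1 neuron of each class and Lrfn1 was listed at 0 in every library.

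Teneurins, large transmembrane partners of latrophilins, differed among themselves. Tenm2 (ENSMUSG00000049336, chr11:36006656-37235964, minus strand) ranged from 0 to 79 TPM in pLSO neurons (median 1) and from 0 to 1 TPM in LOC neurons (median 0). It was detected in 32 of 52 pLSO neurons (61.5%, 47.0 to 74.7%) and in 2 of 28 LOC neurons (7.14%, 0.877 to 23.5%), and 1 negative control held 1 TPM. The mean was 4.96 TPM (SD 11.7) in pLSO and 0.0714 TPM (SD 0.262) in LOC neurons, where 2 neurons made up the mean. All values above 1 TPM were in pLSO neurons, but most were low, and at a threshold of 10 TPM the difference of the share was 11.5 points. Tenm1, Tenm3 and Tenm4 were detected in 15.4 to 26.9% of pLSO and 7.14 to 17.9% of LOC neurons, and none reached 25 points. The latrophilins Adgrl1, Adgrl2 and Adgrl3, which receive teneurins, were detected in 11.5 to 36.5% of pLSO and 21.4 to 42.9% of LOC neurons, with differences between the classes of less than 10 points. The FLRT genes Flrt2 and Flrt3, further ligands of latrophilins, and Slitrk1 were found in at most 21.4% of either class.

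Cadherins were split between the classes. Cdh4 (R-cadherin; ENSMUSG00000000305, chr2:179442431-179899373, plus strand) was detected in 18 of 52 pLSO neurons (34.6%, 21.97 to 49.1%) and in 0 of 28 LOC neurons, which allows a share of up to 10.7%. The level ranged from 0 to 10221 TPM in pLSO neurons with a median of 0, and 9 neurons were at 1000 TPM or more. Cdh4 was listed at 0 in all LOC neurons and negative controls, so no ratio was formed. It lies among the first 150 rows, where the lowest positive values were higher; after rescaling to gene length its mean in pLSO neurons was 12.6 TPM, the 22nd of the 49 members.

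Cdh11 (ENSMUSG00000031673, chr8:102632095-102785642, minus strand), a type II cadherin, ranged from 0 to 90 TPM in pLSO neurons (median 0) and from 0 to 2 TPM in LOC neurons. It was detected in 24 of 52 pLSO neurons (46.2%, 32.2 to 60.5%) and 2 of 28 LOC neurons (7.14%), with means of 8.81 TPM (SD 18.4) and 0.107 TPM (SD 0.416). Cdh2 (N-cadherin) was higher in pLSO by share (59.6% against 32.1%), but the intervals overlapped (45.1 to 73.0% and 15.9 to 52.4%), and the difference of 27.5 points was below 25 in 5 settings, down to 15.0 points among neurons with 2000 to 3500 genes. Its levels spanned 0 to 363 TPM in pLSO and 0 to 259 TPM in LOC neurons, and a negative control held 119 TPM.

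Cdh8 (ENSMUSG00000036510, chr8:99024471-99416471, minus strand), another type II cadherin, was the LOC counterpart. It ranged from 0 to 43 TPM in LOC neurons (median 0) and from 0 to 6 TPM in pLSO neurons. Transcripts were found in 10 of 28 LOC neurons (35.7%, 18.6 to 55.9%) and 2 of 52 pLSO neurons (3.85%, 0.469 to 13.2%), with means of 6.46 TPM (SD 11.9) and 0.154 TPM (SD 0.872). As with Nxph1, both pLSO neurons with Cdh8 were Sustained, and 0 of 41 Onset neurons and 0 of 8 negative controls had a transcript. A Sustained neuron with 6276 detected genes, the most of all neurons, held both Nxph1 and Cdh8 at 6 TPM. Cdh10 and Cdh13 were detected in at most 7.69% of either class.

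**Figure D3:**
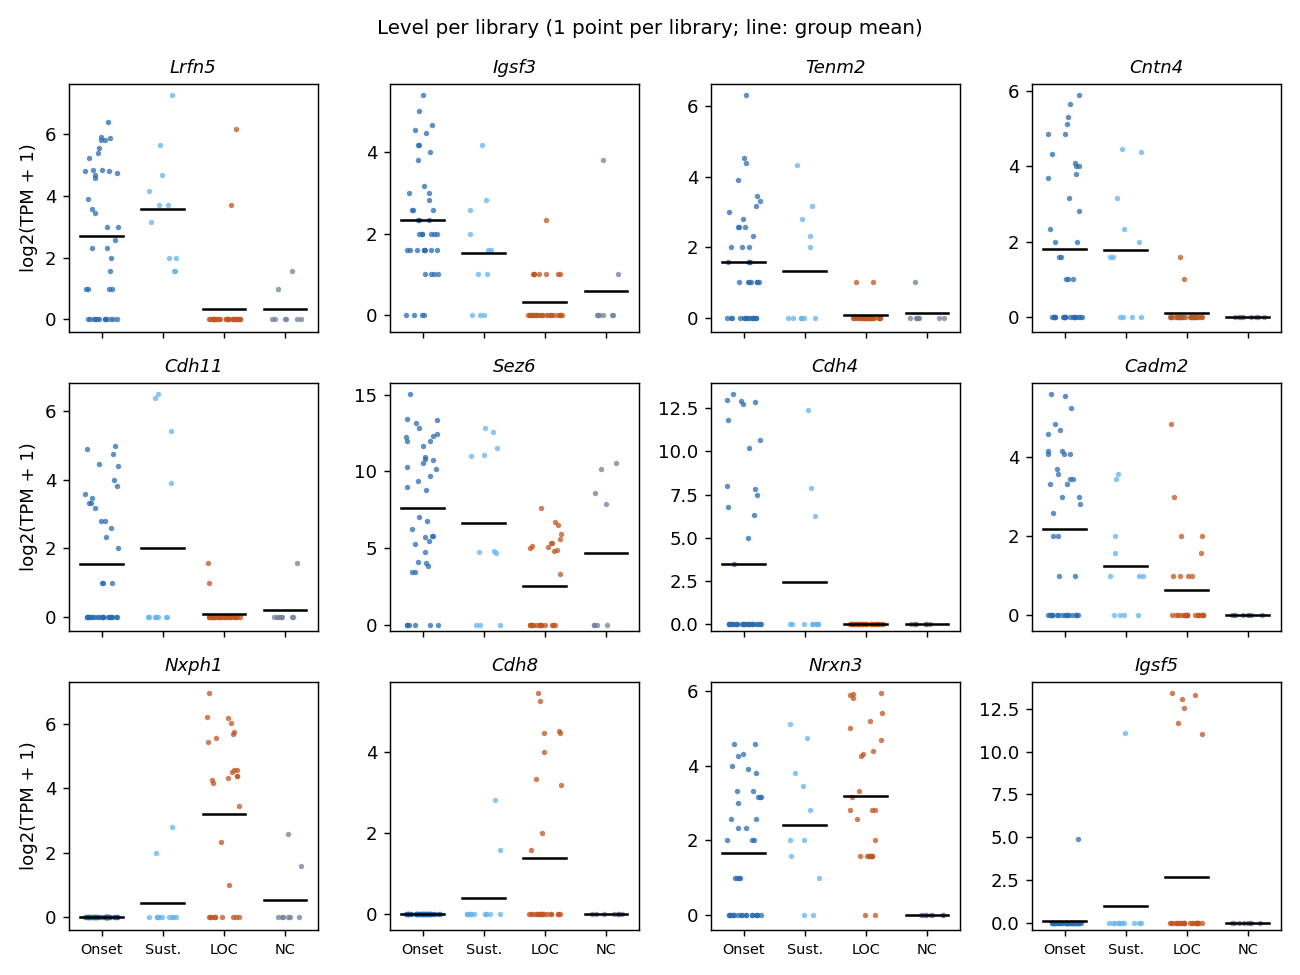
Level of 12 adhesion genes in every library as log2(TPM + 1) (y axis) in 41 Onset, 11 Sustained (Sust.) and 28 LOC neurons and 8 negative controls (NC). Each point is a library and each line a group mean; Cdh4 is listed at 0 in all 28 LOC neurons, and Nxph1 and Cdh8 are at 0 in all 41 Onset neurons.

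The immunoglobulin superfamily member Igsf3 (ENSMUSG00000042035, chr3:101377083-101463059, plus strand) was detected in more pLSO neurons than any other member. It ranged from 0 to 41 TPM in pLSO neurons (median 3) and from 0 to 4 TPM in LOC neurons (median 0). The shares were 45 of 52 (86.5%, 74.2 to 94.4%) and 8 of 28 (28.6%, 13.2 to 48.7%). Of the 8 LOC neurons with Igsf3, 7 held only 1 TPM. The mean was 6.37 TPM (SD 8.62) in pLSO and 0.393 TPM (SD 0.832) in LOC neurons, a ratio of 16.2; without the LOC neuron of 4 TPM the LOC mean was 0.259 TPM. One of the 8 negative controls held 13 TPM and another 1 TPM. Because levels were low, the difference of the share at a threshold of 10 TPM was 19.2 points.

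Igsf5 (ENSMUSG00000000159, chr16:96361668-96422121, plus strand), known as a junctional adhesion molecule, was present in few neurons at high values. In LOC neurons 6 of 28 had a transcript (21.4%, 8.30 to 40.95%), and these 6 held 2107 to 10836 TPM. In pLSO neurons 2 of 52 had a transcript (3.85%, 0.469 to 13.2%), at 29 and 2174 TPM. The intervals overlapped, and the other neurons and all negative controls were at 0. Like Cdh4, Igsf5 lies at the start of the table, and its rescaled mean in LOC neurons was 46.4 TPM, the 9th of the 49 members.

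Contactins, GPI-anchored axonal adhesion molecules, included a pLSO gene and a gene with higher levels in LOC. Cntn4 (ENSMUSG00000064293, chr6:105677660-106699310, plus strand) ranged from 0 to 59 TPM in pLSO neurons (median 1.5) and from 0 to 2 TPM in LOC neurons. It was detected in 29 of 52 pLSO neurons (55.8%, 41.3 to 69.5%), 2 of 28 LOC neurons (7.14%) and 0 of 8 negative controls, and the means were 8.06 TPM (SD 13.5) and 0.107 TPM (SD 0.416). Cntn5 (ENSMUSG00000039488) was frequent in both classes, at 59.6% of pLSO and 75% of LOC neurons with overlapping intervals, and was absent from the negative controls. Its median was 3 TPM in pLSO (range 0 to 57) and 15 TPM in LOC neurons (range 0 to 259), and its means were 7.38 TPM (SD 11.5) and 28.6 TPM (SD 49.7), a ratio of 3.87 toward LOC. Cntn1 was found in 53.8% of pLSO and 42.9% of LOC neurons but also in 4 of 8 negative controls, and Cntn3 in at most 11.5% of either class.

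The Caspr genes, whose products pair with contactins, differed by less than 25 points. Cntnap1, a component of the paranodal junction, was detected in 46.2% of pLSO and 25% of LOC neurons, with overlapping intervals, means of 87.6 and 25.4 TPM, and a difference of 1.35 in the mean log2(TPM + 1). The range was 0 to 710 TPM in pLSO and 0 to 364 TPM in LOC neurons, and no negative control held it. Without the LOC neuron of 364 TPM the LOC mean was 12.9 TPM. Cntnap2 was detected in 63.5 and 64.3% of the classes, Cntnap4 in 30.8 and 25%, and Cntnap5a in 1 neuron of each.

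Ncam1, the neural cell adhesion molecule, was also detected in more LOC neurons. It ranged from 0 to 45 TPM in LOC neurons (median 2.5) and from 0 to 22 TPM in pLSO neurons (median 0). It was detected in 57.1% of LOC (37.2 to 75.5%) and 28.8% of pLSO neurons (17.1 to 43.1%), and in 3 of 8 negative controls at 1 to 15 TPM. The mean was 8.82 TPM (SD 11.7) in LOC and 1.79 TPM (SD 4.07) in pLSO neurons, a ratio of 4.93. Among the neurons with lower oligodendrocyte signal, the difference of the share fell from 28.3 to 12.2 points and was no longer called. Of the SynCAM genes, Cadm2 (ENSMUSG00000064115, chr16:66655421-67620908, minus strand) was higher in pLSO, with 61.5% of pLSO (47.0 to 74.7%) and 32.1% of LOC neurons (15.9 to 52.4%), and was absent from the negative controls. Its range was 0 to 48 TPM (median 2.5) in pLSO and 0 to 28 TPM (median 0) in LOC neurons, and the means were 7.92 and 1.68 TPM. A LOC neuron of 28 TPM decided the latter, since the LOC mean without it was 0.704 TPM. Cadm1 was frequent in both classes (67.3 and 71.4%), with means of 30 and 33.8 TPM.

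Sez6 (ENSMUSG00000000632, chr11:77930800-77979048, plus strand), a membrane protein with CUB and sushi domains, reached the highest values of all members. In pLSO neurons it ranged from 0 to 33453 TPM with a median of 281 TPM, and 22 of 52 neurons were at 1000 TPM or more. In LOC neurons it ranged from 0 to 194 TPM with a median of 0. The shares were 82.7% (69.7 to 91.8%) in pLSO and 46.4% (27.5 to 66.1%) in LOC neurons, and the means were 2517 TPM (SD 5241) and 26.2 TPM (SD 43.4), a ratio of 96.0. However, 4 of 8 negative controls had Sez6 at 234 to 1488 TPM, each above every LOC neuron, and the mean of the controls was 407.1 TPM. Sez6 belongs to the first 150 rows, and after rescaling its mean in pLSO neurons was 36.5 TPM, the 13th of the 49 members. Sez6l2 was detected in 34.6% of pLSO and 57.1% of LOC neurons, and Sez6l in 28.8 and 17.9%.

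Rescaling to gene length gave an estimated order of the members within a class. The highest means in pLSO neurons were those of Cntn4 (109.7 TPM), Cadm2 (97.0 TPM), Cadm1 (78.9 TPM), Cntn1 (78.0 TPM) and Cntn5 (74.7 TPM). In LOC neurons, Nxph1 (271.2 TPM), Cntn5 (218.7 TPM) and Nrxn3 (152.6 TPM) led, followed by Lrrtm3 (82.1 TPM) and Cadm1 (75.0 TPM). Cntn5 and Cadm1 were among the first 5 in both classes.

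Do the Onset and Sustained patterns of pLSO neurons go along with different adhesion genes? The share was at least 25 points higher in Sustained neurons for 5 members (Sez6l, Cadm3, Lrfn5, Cntn5 and Nrxn2) and at least 25 points higher in Onset neurons for 0. Other settings gave members higher in Onset: Igsf3 (25.9 points) and Cntn1 (26.4 points) at 2 TPM, Cntn1 (34.1 points) at 10 TPM, and Sez6 (30.6 points) among neurons with 2000 to 3500 genes. Among the 24 Onset and 5 Sustained neurons with lower oligodendrocyte signal, Cdh4, Cntnap2, Tenm3, Igsf3 and Cadm1 were 27.5 to 37.5 points higher in Onset. Toward Sustained, 4 of the 5 reported members remained there (all but Nrxn2), and Adgrl2, Flrt2, Cdh2 and Cntn4 were added at 27.5 to 34.2 points. In the comparison of all 41 Onset and 11 Sustained neurons at 1 TPM, 6.43% of all genes tested were at least 25 points higher in Sustained and 1.57% in Onset. These percentages were not computed for the other settings, and only 11 neurons were Sustained. Microglial markers also differed between the patterns. C1qc was detected in 7 of 11 Sustained and 5 of 41 Onset neurons, without overlap of the intervals. C1qb was detected in 6 and 11, C1qa in 5 and 7, and P2ry12 in 4 and 8. Cx3cr1 was found in 1 and 3 and Tmem119 in 1 and 2, while Csf1r (2 and 9) had a lower share in Sustained. A link between microglial RNA and the member differences was not tested. Sez6l was detected in 7 of 11 Sustained (63.6%, 30.8 to 89.1%) and 8 of 41 Onset neurons (19.5%, 8.82 to 34.9%). Its range was 0 to 13 TPM with a median of 2 TPM in the former and 0 to 18 TPM with a median of 0 in the latter.

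Cadm3, a SynCAM protein, was found in 63.6% of Sustained and 26.8% of Onset neurons. The medians were 31 and 0 TPM, and both groups reached values over 1000 TPM (1396 and 1941 TPM). Lrfn5 was present in all 11 Sustained neurons (71.5 to 100%), at 2 to 155 TPM, and in 29 of 41 Onset neurons (70.7%, 54.5 to 83.9%) at 0 to 83 TPM. Cntn5 was detected in 81.8% of Sustained (median 10 TPM) and 53.7% of Onset neurons (median 2 TPM), and Nrxn2 in 72.7 and 46.3%. The intervals of the patterns overlapped for all 5 members, and leaving out any of 8 neurons brought Nrxn2 below 25 points (lowest difference 23.7 points). At 10 TPM, Nrxn2, Lrfn5 and Sez6l differed by less than 25 points. Between 2000 and 3500 detected genes (8 Sustained and 29 Onset neurons), Nrxn2 and Cntn5 differed by less than 25 points, and Sez6l, Cadm3 and Lrfn5 did not.

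**Figure D4:**
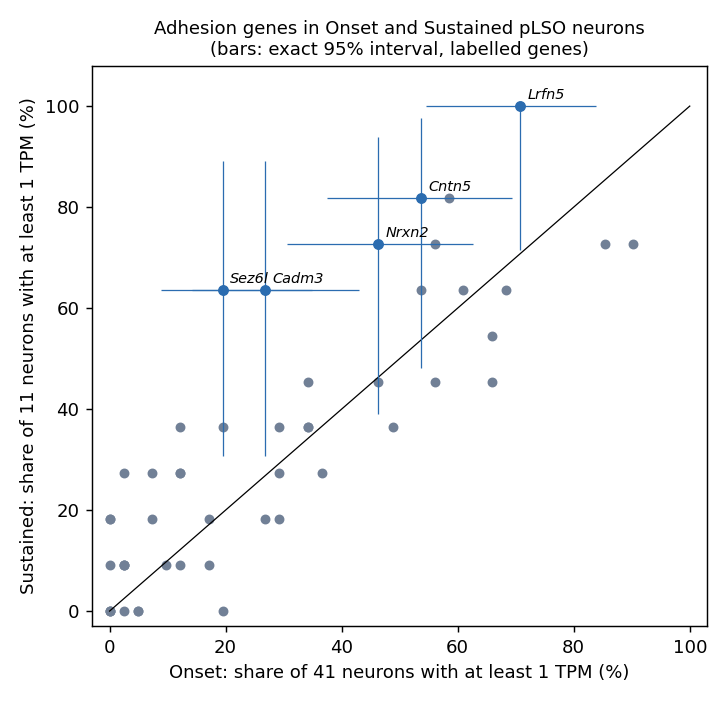
Share of neurons with at least 1 TPM for the 49 adhesion genes in 41 Onset (x axis, %) and 11 Sustained pLSO neurons (y axis, %). The line marks equal shares; the 5 named members lie at least 25 points above it, with exact 95% intervals as bars, and 0 members lie at least 25 points below it.

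A single neuron held a limited set of these genes. The number of members detected per neuron ranged from 6 to 29 in pLSO (median 14.5) and from 3 to 22 in LOC neurons (median 12.5), and from 1 to 10 in negative controls (median 3). It moved with the total number of genes detected, which ranged from 1333 to 6276 in pLSO, from 1175 to 4408 in LOC neurons and from 285 to 1271 in negative controls. Across the 52 pLSO neurons, Pearson's r between both numbers was 0.79 (Spearman's rho 0.713), and across the 28 LOC neurons it was 0.41 (rho 0.376). Both counts come from the same library and share its unknown depth. Per 1000 detected genes, the median was 5.36 members in pLSO and 5.07 in LOC neurons.

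**Figure D5:**
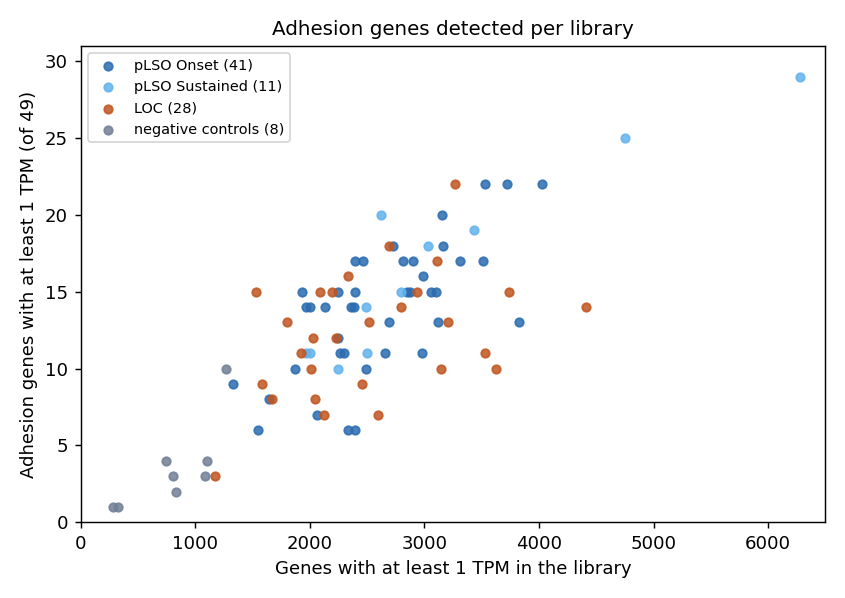
Number of the 49 adhesion genes with at least 1 TPM (y axis) against the number of all genes with at least 1 TPM (x axis) in each library. Points are 41 Onset, 11 Sustained and 28 LOC neurons and 8 negative controls; the negative controls lie at 1 to 10 members and at most 1271 genes.

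Compared with the negative controls, 17 members had a share at least 25 points higher in the 80 neurons, against 26.6% of all genes tested, and 0 members were lower by as much (0.184% of all genes tested). In all, 34 of the 49 members were in no negative control, which for 8 libraries allows a share of up to 37.5%. The controls held only 285 to 1271 detected genes each, and the same count over all genes was not made. The number 34 is therefore not a result about the members.

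The number of neurons that held both genes of a known pair of partners was set beside the number that the single shares would give. Of the 32 pLSO neurons with Tenm2, 12 also held Adgrl1, 3 Adgrl2 and 11 Adgrl3, and the products of the single shares gave 11.1, 3.69 and 11.7 neurons. In LOC neurons, 17 of the 19 neurons with Nxph1 also held Nrxn3, compared with 17.6 from the shares, and 6 also held Nrxn2, compared with 6.79. Cntn1 and Cntnap1 were found together in 15 pLSO neurons (12.9 from the shares) and 3 LOC neurons (3 from the shares). Cntn4 and Cntnap4 were found together in 10 pLSO neurons, compared with 8.92. Cdh4 and Cdh11, counted as cadherins of the same class of neurons and not as known partners, were found together in 10 pLSO neurons, compared with 8.31.

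Further pairs were chosen after their values were seen. Of the 19 LOC neurons with Nxph1, 7 also held Cdh8, 4 also held Igsf5 and 12 also held Ncam1, compared with 6.79, 4.07 and 10.9 from the shares. In pLSO neurons, Tenm2 and Cntn4 were found together in 23 neurons, compared with 17.8, and Tenm2 and Lrfn5 in 27, compared with 24.6.

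A wider list of 89 genes of the same families and of their partners was examined in the same way, and 62 of them passed the filter on low values. The share was at least 25 points higher in pLSO for 9 genes (14.5% of the 62, against 3.06% of all genes tested). It was higher in LOC by as much for 1 (1.61%, against 1.8%). This list was also chosen with earlier results of these data known, so these percentages are not a result about adhesion genes as a set. Ptprd, a presynaptic receptor phosphatase, was detected in all 52 pLSO neurons, at a median of 114.5 TPM, and in 64.3% of LOC neurons, with means of 123.7 and 11.6 TPM (7.48 TPM without the highest LOC neuron). Lrrn1, a leucine-rich neuronal protein, was detected in 51.9 and 7.14% of the classes, Ntm (neurotrimin) in 61.5 and 25%, and Thy1, a GPI-anchored surface protein, in 71.2 and 39.3%. Slitrk4 (34.6 and 7.14%) and Nfasc, the axonal neurofascin (59.6 and 32.1%), shared the fifth place. Toward LOC, Il1rap, a partner of presynaptic phosphatases, was detected in 46.4% of LOC and 11.5% of pLSO neurons, with means of 202.6 and 11.4 TPM (5.69 TPM without the highest pLSO neuron). It was followed by Clstn3 (42.9 and 23.1%), Unc5c (25 and 7.69%), Cdh12 (21.4 and 5.77%) and L1cam (28.6 and 13.5%), which all differed by less than 25 points.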

How the data were processed

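Patch-seq libraries of 86 neurons and 10 negative controls were deposited as one table of TPM, a score per gene and library rounded to whole numbers. Per the labels and methods, the authors trimmed reads (Trim Galore 0.4.2), aligned them to mm10 with STAR, handled duplicates with Picard 1.115, counted with featureCounts on Gencode genes and normalized to gene length and depth; no counts were used here. Lowest positive values fell along the rows, so levels of different genes were compared only after rescaling to their own length. Gene names, positions and lengths came from Gencode vM21 (GRCm38), which matched 37570 of 38887 rows. 6 neurons and 2 negative controls were left out, since their identity in the study's supplement or their class was in doubt. A doubt about the names of 3 further pLSO neurons was treated as an alternative.

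Detection meant at least 1 TPM, with exact Clopper-Pearson 95% intervals, and means and the pseudocount of 1 in log2(TPM + 1) were stated with each value. For 0 detected libraries, the limit was 3 divided by their number. No ratio was formed where a class had 3 or fewer neurons with a transcript. Members were described in full if the share differed by 25 points between classes or firing patterns, if the mean log2(TPM + 1) differed by 1, or if 5 neurons of a class held 1000 TPM; 19 did. From the wider list, the 5 genes of largest difference in each direction were named, with a tie for the fifth place. The members, lists and thresholds were chosen with earlier results of these data known. Alternatives covered the detection threshold, pseudocount, choice of libraries, number of genes and gene length. Scripts (Python 3.11.15, pandas 2.3.3, scipy 1.17.1) were tested on simulated data. The summed level of the pLSO marker list is not reported here.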

Additional observations from a re-analysis of the deposited data

Results flagged for a closer look

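Among the 8 negative controls, 1 library stood apart from the others, with 10 members detected, while the next had 4. It was also the negative control with the most detected genes (1271), and it held Sez6 at 234 TPM, Sez6l2 at 56 TPM, Cadm1 at 47 TPM, Cdh11 at 2 TPM and Tenm2 at 1 TPM. For single genes, 1 of the 8 controls was far from the rest for Tenm2 (1 TPM, all others 0), Cdh11 (2 TPM, all others 0), Cdh2 (119 TPM, all others 0), Nrxn2 (8 TPM, next 1), Nxph1 (5 TPM, next 2), Igsf3 (13 TPM, next 1) and Ncam1 (15 TPM, next 1). The criterion marks about 1 in 20 groups of evenly spread values by construction, a rate that does not hold here, since with most controls at 0 any single positive library reaches it.

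Of the libraries left out of the comparisons, 4 had more members than the highest negative control: a Sustained neuron with 12, LOC neurons with 11 and 12, and a library labelled as a negative control with 19 members and 3104 detected genes, a number within the range of the neurons.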

How the results depend on the processing

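Across the alternatives, 82 of 96 recomputed counts and medians stayed within 1.5 times the reported count or within the spread, and no difference of at least 25 points between pLSO and LOC changed its sign. The spread allowed for medians was wide: the interval of a single gene, or the SD over neurons. One alternative, neurons with more genes than the highest negative control, kept 52 pLSO and 27 LOC neurons and was close to the main comparison. The number 82 is thus a lenient count. At a threshold of 10 TPM, 3 members differed between Onset and Sustained (2 of the 5 reported, and Cntn1, which was higher in Onset), 9 were higher in neurons than in negative controls and 3 genes of the wider list were higher in pLSO; Tenm2, Igsf3 and Cdh2 (toward pLSO) and Nrxn3 and Cdh8 (toward LOC) then differed by less than 25 points. With 40 points in place of 25, 4 members were higher in pLSO, 1 in LOC, 1 differed between firing patterns and 6 were higher in neurons than in controls. With log2(TPM + 10), 2 members were at least 1 higher in pLSO and 2 in LOC. The wider list had 2 genes higher in LOC at 2 TPM and among neurons with 2000 to 3500 genes. Added after seeing the data, the 29 pLSO and 11 LOC neurons with lower oligodendrocyte signal gave 7 members higher in LOC. They also gave 13 members that differed between firing patterns (5 Sustained neurons) and 4 genes of the wider list higher in LOC. In these neurons, 8 of the 9 pLSO members (all but Cdh11) and 3 of the 4 LOC members (all but Ncam1) remained. The percentages over all genes were not computed for any alternative, so changes in these counts give no result about the members. Without 3 pLSO neurons of doubtful name, all 9 and 4 members remained. Without the Sustained neuron of most genes, 9 and 4 members remained and 4 differed between firing patterns. Cdh2 fell below 25 points in 5 settings. No paired analysis was possible because the replicate numbers only name neurons and no result comes from a test. The depth of each library was unknown, so a value of 0 can reflect a missed transcript.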
